A study of Homo sapiens with 8 samples.

Results

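The centromere, kinetochore and mitotic genes described here are a list of 45 symbols whose products build the centromere and kinetochore, guard chromosome attachment and carry a cell through mitosis and cytokinesis. The loci of the deposited table were matched by gene name, and for each symbol the locus with the highest mean over the 8 libraries was kept when that mean was at least 1. Of the 45 symbols, 44 had such a locus, among 32087 loci in all and 10520 genes tested, and BUB1B was not analysed here. The 44 means ran between 8.31 for CDC25C and 292 for PTTG1, so that none sat near the minimum. The matching rule used no difference between libraries, but the list itself was chosen with earlier results of these data known. Shares of members set against all genes are therefore descriptions and not independent support.

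The RNA was from MEL202, a human uveal melanoma cell line with a mutation in SF3B1, which encodes a core component of the U2 snRNP that recognises the branch point in splicing. There were 4 lines, each in 1 library without and 1 library with Shld, a cell-permeable ligand that stabilises a destabilising domain (DD), so that removal of Shld leads to loss of a protein fused to it. The knockout line (mut-SF3B1 KO) lacks the mutant allele, the wildtype degron line (DD-wt-SF3B1) has the domain on wildtype SF3B1, the mutant degron line (DD-mut-SF3B1) has it on mutant SF3B1, and parental MEL202 cells have neither change in the labels. The labels list each derived line under a clone with a time of 2 days. The column names of the knockout line add a destabilising domain on wildtype SF3B1 and give 4 days without Shld, which its labels do not, and the parental library without Shld is also named as 4 days. For the degron lines the column names give 2 days, as the labels do. The Shld comparison in the knockout line may therefore differ from those of the degron lines in time as well as in genotype, and these cannot be told apart.

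Chromosomes are held by the spindle at kinetochores, which assemble on a chromatin platform marked by the histone variant CENP-A. The inner centromere network sits on that platform, the outer kinetochore grips microtubules, and the spindle checkpoint delays anaphase until every chromosome is attached. Most of these genes are transcribed periodically, with highest RNA in G2 and mitosis, and are widely used as markers of proliferating tumour cells. In RNA from a whole culture, fewer cells in mitosis and less RNA per cell cannot be told apart.

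The values are of FPKM type (fragments counted per length of transcript and size of library) that the authors had rescaled, with the 75th percentile at 10 in every library, here called rescaled FPKM. The absolute depth of the libraries is unknown. From the steps between low values, a unit of value stood for more fragments in the other 7 libraries than in the parental library with Shld, by a factor of 1.05 to 1.49. The least even pairs were those of the knockout line, at 1.06 without and 1.46 with Shld, and of mutant degron cells, at 1.05 without and 1.49 with it. SF3B1 itself was at 138 rescaled FPKM without Shld and 158 with it in the knockout line, the lowest of the 4 lines, against 201 without and 188 with it in the wildtype degron line, 252 without and 248 with it in the mutant degron line, and 239.8 without and 266 with it in parental cells. The degron acts on protein, so this RNA does not test the depletion. Most melanocyte markers with a locus were high throughout, with PMEL between 2365 and 7945 rescaled FPKM and SOX10 between 244 and 426, whereas DCT lay between 1.15 and 16.7 and OCA2 between 5.41 and 71.1, both lowest in the knockout line. The markers had a summed level over 9 loci, mostly PMEL and TYRP1, between 6522 in the knockout line without Shld and 15600 in the wildtype degron line with it. All 4 epithelial markers and 3 of 4 endothelial markers were below 1 in every library, and the leukocyte marker CD3E and the fibroblast marker THY1 were listed at 0 throughout. The leukocyte marker PTPRC lay between 0.232 and 1.22. Of the 4 fibroblast markers with a locus LUM alone exceeded 1, at 1.6 to 29.6.

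Promoter sequences are shown for the 2 members whose fall after Shld removal passed the test and for 2 further members, CENPA and CCNB1, that were chosen after their values were seen because they carry the motifs searched for. Many genes of G2 and mitosis carry in the promoter a cell cycle homology region (TTTGAA or TTTAAA) and CCAAT boxes. The 150 bases before the RefSeq gene start are given 5′ to 3′ on the gene's strand (build GRCh38.p14), with matches to TTTGAA or TTTAAA or to CCAAT on either strand in capitals.
SPC24, chr19:11155783-11155932, minus strand: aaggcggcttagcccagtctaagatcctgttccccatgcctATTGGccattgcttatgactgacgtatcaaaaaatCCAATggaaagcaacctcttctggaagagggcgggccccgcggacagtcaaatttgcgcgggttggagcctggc
IQGAP3, chr1:156572566-156572715, minus strand: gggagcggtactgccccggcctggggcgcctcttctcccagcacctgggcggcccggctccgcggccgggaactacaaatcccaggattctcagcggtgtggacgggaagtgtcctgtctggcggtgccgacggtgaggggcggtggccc
CENPA, chr2:26785906-26786055, plus strand: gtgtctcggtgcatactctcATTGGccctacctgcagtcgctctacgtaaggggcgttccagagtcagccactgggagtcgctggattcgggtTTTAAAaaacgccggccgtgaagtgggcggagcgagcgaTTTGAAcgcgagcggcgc
CCNB1, chr5:69167000-69167149, plus strand: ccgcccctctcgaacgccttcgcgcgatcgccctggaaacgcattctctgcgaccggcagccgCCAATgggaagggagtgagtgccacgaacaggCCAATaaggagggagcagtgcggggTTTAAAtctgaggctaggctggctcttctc
The SPC24 stretch held a pair of CCAAT boxes, 1 of them on the opposite strand, and neither form of the homology region. The IQGAP3 stretch held none of the 3 motifs. In CENPA, TTTAAA began 57 bases and TTTGAA 18 bases before the start, and in CCNB1 TTTAAA began 30 bases before it. RefSeq promoters were matched for 36 of the 44 members. Over the 250 bases before the start, TTTGAA was found in 14 of 36 members (38.9%, against 13.4% of 34943 promoters of the same length), TTTAAA in 11 (30.6%, against 11.3%) and CCAAT in 26 (72.2%, against 32%). The median log2 difference after Shld removal in the knockout line was -0.59 with TTTGAA and -0.68 without it, -0.56 with TTTAAA and -0.68 without it, and -0.59 with CCAAT and -0.71 without it. The match of letters is a description and not a binding site. Bases after the start or further before it were not searched, so a member without a match here may hold one there.

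In the knockout line, all 44 members were lower without Shld than with it, against 49.6% of all genes. The level without Shld was between 43.2% (SPC24) and 82.7% (CENPH) of the level with it, with a median of 65.8%. The median log2 difference, taken after adding 1 to each value so that changes of low genes come out too small, was -0.59, against 0.00 over all 10520 genes tested, and 23 of the 44 were at least 1.5-fold lower, against 2.79% of all genes, whereas none was 1.5-fold higher, against 1.96%. SPC24, a subunit of the Ndc80 complex that couples kinetochores to microtubules, and IQGAP3, a scaffold protein linked to cytokinesis and cell proliferation, fell (limma, adjusted p = 0.0137 for SPC24 and 0.0145 for IQGAP3), as 0.323% of all genes did, and no member rose (0.209% of all genes did). Of the other 42, the lowest adjusted p was 0.0547, for CENPA. At an unadjusted p below 0.05 were 38 of the 44, all of them lower (7.16% of all genes were lower at that p).

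The test rests on 1 library per state. Its spread comes from the parental pair, the other libraries are assumed to vary like it, and ± below is the standard error of that model. The number of members that fell was 18 when the test was restricted to genes with a mean of at least 5 (1.78% of those genes fell) and 22 with a correction for transcript length (1.99% of all genes), the 18 being among the 22, and it was 0 without a filter on the mean, with median centring or with every locus. SPC24 and IQGAP3 passed in 5 of 8 alternatives, with adjusted p between 0.000339 and 0.476 for SPC24 and between 0.000369 and 0.431 for IQGAP3.

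**Figure D1:**
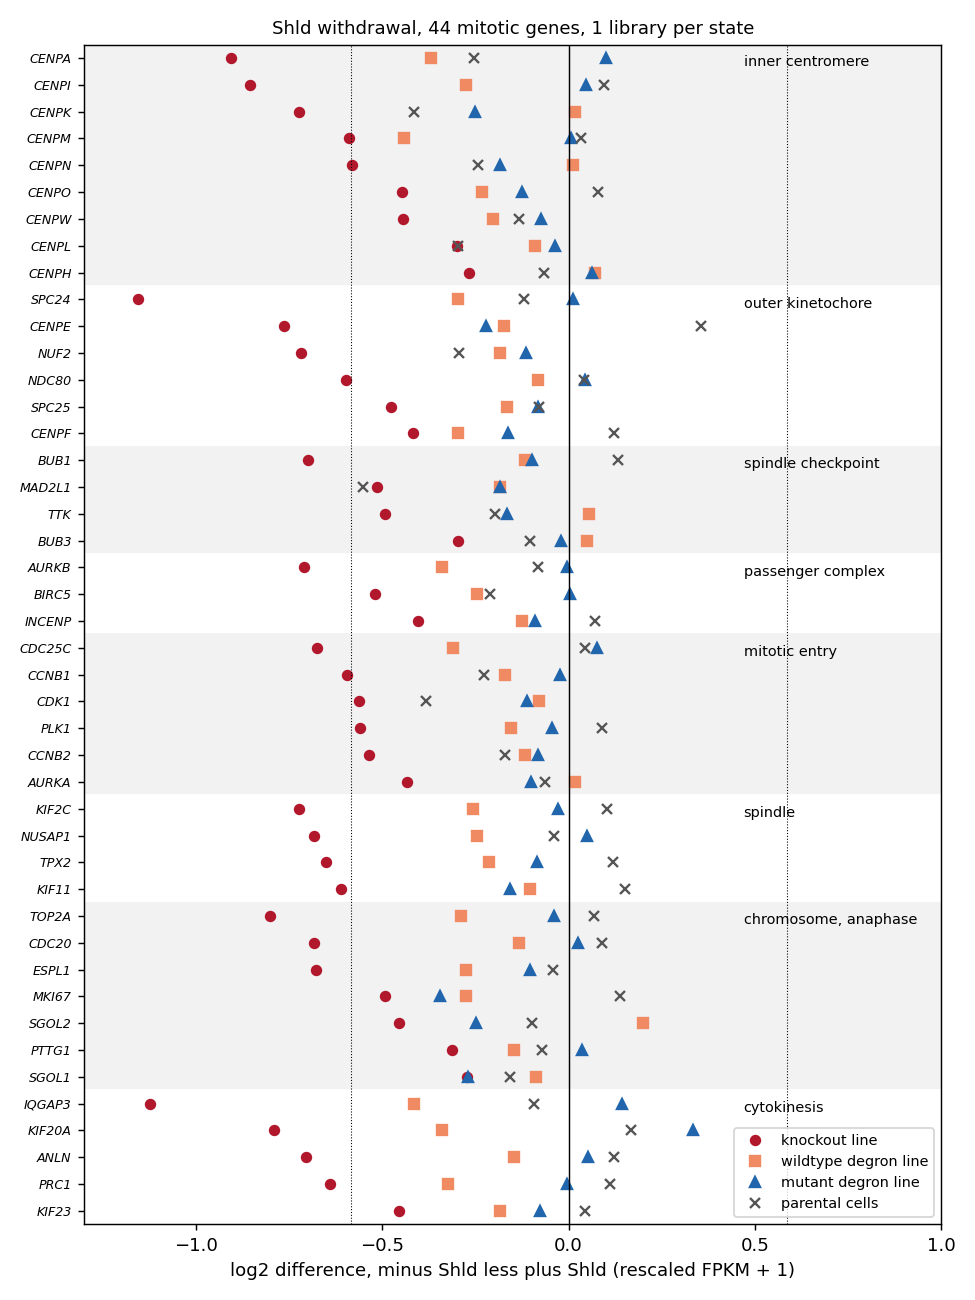
Log2 difference in rescaled FPKM (pseudocount 1) without less with Shld for the 44 members, grouped by role, in the knockout line (circles), the wildtype degron line (squares), the mutant degron line (triangles) and parental cells (crosses); dotted lines mark 1.5-fold, and each point compares 1 library with 1 library. All 44 circles lie below 0, with a median of -0.59, while no square, triangle or cross passes a dotted line.

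The 9 measured genes of the inner centromere had a median log2 difference of -0.58 in the knockout line, and 4 of them were at least 1.5-fold lower. CENPA, the histone H3 variant that marks the centromere, had a level, in rescaled FPKM as for every level given here, of 23.9 without Shld and 45.7 with it in the knockout line, 25.5 without and 33.2 with it in the wildtype degron line, 59.1 without and 55.1 with it in the mutant degron line, and 41.4 without and 49.6 with it in parental cells. Its lowest level was that of the knockout line without Shld and its log2 difference there was -0.91 ± 0.18. CENPI, which anchors the CENP-H/I/K group of the inner network, had 6.49 without Shld and 12.5 with it in the knockout line, 7.08 without and 8.78 with it in the wildtype degron line, 13.5 without and 13.0 with it in the mutant degron line, and 9.60 without and 8.93 with it in parental cells. It too was lowest in the knockout line without Shld (-0.85 ± 0.17). CENPH, a partner of CENPI in that group, had the smallest difference of all members (-0.27 ± 0.16), with 37.5 without Shld and 45.4 with it in the knockout line, 33.2 without and 31.6 with it in the wildtype degron line, 38.0 without and 36.4 with it in the mutant degron line, and 38.4 without and 40.3 with it in parental cells. Its level in the knockout line without Shld lay inside the range of the other libraries. The remaining CENPK, CENPM, CENPN, CENPO, CENPW and CENPL lay between -0.72 for CENPK and -0.30 for CENPL.

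The 6 outer kinetochore genes had a median of -0.66, and 4 of them were at least 1.5-fold lower. SPC24 had 13.7 without Shld and 31.8 with it in the knockout line, 22.3 without and 27.6 with it in the wildtype degron line, 32.7 without and 32.5 with it in the mutant degron line, and 25.7 without and 28.0 with it in parental cells. The knockout line without Shld was the lowest of the 8 libraries and the same line with Shld stood above both parental libraries. On the log2(value + 1) scale SPC24 was 2.23-fold lower without Shld than with it (-1.16 ± 0.16). CENPE, a kinesin motor that brings chromosomes to the spindle equator, had 6.71 without Shld and 12.1 with it in the knockout line, 10.0 without and 11.4 with it in the wildtype degron line, 10.9 without and 12.8 with it in the mutant degron line, and 8.25 without and 6.24 with it in parental cells. Its difference in the knockout line was -0.77 ± 0.20, while the parental pair differed by +0.35 in the opposite direction, the largest parental difference upward. CENPF, a large microtubule-binding protein of the kinetochore, had the smallest difference of the group (-0.42 ± 0.17), with 49.6 without Shld and 66.5 with it in the knockout line, 65.7 without and 80.9 with it in the wildtype degron line, 62.2 without and 69.7 with it in the mutant degron line, and 39.6 without and 36.3 with it in parental cells. NUF2, NDC80 and SPC25, the partners of SPC24 in the Ndc80 complex, were at -0.72, -0.60 and -0.48 in the knockout line, and none of the 3 passed the test.

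Of the 4 checkpoint genes 1 was at least 1.5-fold lower, and the median was -0.50. BUB1, a kinase that recruits checkpoint proteins to kinetochores, had 41.8 without Shld and 68.6 with it in the knockout line, 52.9 without and 57.5 with it in the wildtype degron line, 84.3 without and 90.3 with it in the mutant degron line, and 61.8 without and 56.2 with it in parental cells. Its difference in the knockout line was -0.70 ± 0.17. MAD2L1, which inhibits the activator CDC20 of the anaphase-promoting complex, had 109 without Shld and 157 with it in the knockout line, 65.3 without and 74.4 with it in the wildtype degron line, 170.0 without and 193 with it in the mutant degron line, and 136 without and 200.4 with it in parental cells. It was the only member whose parental difference, -0.55, was further below 0 than that in the knockout line (-0.52 ± 0.25). BUB3, the binding partner of BUB1, was at -0.30 ± 0.18, with 113 without Shld and 139 with it in the knockout line, 106 without and 102 with it in the wildtype degron line, 148 without and 150.4 with it in the mutant degron line, and 128 without and 138 with it in parental cells. TTK, the kinase also known as MPS1, was at -0.49.

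The chromosomal passenger complex corrects wrong attachments and acts again in cytokinesis. The 3 members that belong to it, AURKB, BIRC5 and INCENP, had a median of -0.52. Its remaining subunit CDCA8, or borealin, is counted among the further centromere genes and had 27.9 without Shld and 43.3 with it in the knockout line. AURKB, the kinase of the complex, had 67.3 without Shld and 111 with it in the knockout line, 69.9 without and 88.7 with it in the wildtype degron line, 119 without and 119 with it in the mutant degron line, and 90.9 without and 96.2 with it in parental cells. It was 1.64-fold lower without Shld in the knockout line (-0.71 ± 0.17). BIRC5, or survivin, which targets the complex to chromatin, had 129 without Shld and 185 with it in the knockout line, 119.8 without and 142 with it in the wildtype degron line, 237 without and 236 with it in the mutant degron line, and 172 without and 199 with it in parental cells. Its difference in the knockout line was -0.52 ± 0.20. INCENP, its scaffold, had 24.1 without Shld and 32.3 with it in the knockout line, 56.5 without and 61.8 with it in the wildtype degron line, 36.5 without and 38.9 with it in the mutant degron line, and 35.4 without and 33.6 with it in parental cells, with the smallest difference of the complex (-0.40 ± 0.16). Both wildtype degron libraries stood above all others for INCENP, whereas for BIRC5 the wildtype degron line without Shld was the lowest of the 8.

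The 6 genes of mitotic entry had a median of -0.56, with 2 at least 1.5-fold lower. CDC25C, a phosphatase that activates CDK1, had 5.56 without Shld and 9.49 with it in the knockout line, 5.44 without and 6.98 with it in the wildtype degron line, 12.4 without and 11.7 with it in the mutant degron line, and 7.61 without and 7.34 with it in parental cells, and its difference in the knockout line was -0.68 ± 0.17. CCNB1, the cyclin partner of CDK1, had 105 without Shld and 159 with it in the knockout line, 98.8 without and 111 with it in the wildtype degron line, 213 without and 216 with it in the mutant degron line, and 129 without and 151 with it in parental cells. Between the knockout libraries it differed by -0.59 ± 0.20. AURKA, a kinase of the spindle poles, had 33.5 without Shld and 45.6 with it in the knockout line, 42.5 without and 42.0 with it in the wildtype degron line, 64.3 without and 69.0 with it in the mutant degron line, and 45.3 without and 47.4 with it in parental cells. Its knockout difference was -0.43 ± 0.16. For AURKA the knockout line without Shld was the lowest library, and for CDC25C and CCNB1 it lay just above the wildtype degron line without Shld. CDK1, PLK1 and CCNB2 lay between -0.56 and -0.54.

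All 4 spindle genes were at least 1.5-fold lower in the knockout line, with a median of -0.67. KIF2C, a kinesin that removes tubulin from microtubule ends, had 24.7 without Shld and 41.4 with it in the knockout line, 33.7 without and 40.5 with it in the wildtype degron line, 50.6 without and 51.6 with it in the mutant degron line, and 34.0 without and 31.6 with it in parental cells. Its knockout difference was -0.72 ± 0.16. NUSAP1, which bundles spindle microtubules, had 87.1 without Shld and 140.4 with it in the knockout line, 84.6 without and 100.5 with it in the wildtype degron line, 141 without and 137 with it in the mutant degron line, and 123 without and 127 with it in parental cells. Between the knockout libraries it differed by -0.68 ± 0.18. KIF11, the kinesin that pushes spindle poles apart, had 26.6 without Shld and 41.1 with it in the knockout line, 42.5 without and 45.8 with it in the wildtype degron line, 45.2 without and 50.4 with it in the mutant degron line, and 37.8 without and 33.9 with it in parental cells. Its knockout difference was -0.61 ± 0.17. TPX2, a spindle assembly factor that activates AURKA, was at -0.65. The knockout line without Shld was the lowest library for KIF2C, KIF11 and TPX2, and for NUSAP1 the wildtype degron line without Shld was slightly lower.

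Among the 7 genes of chromosome structure and anaphase the median was -0.49, and 3 were at least 1.5-fold lower. TOP2A, the topoisomerase that untangles sister chromatids, had 84.6 without Shld and 148 with it in the knockout line, 116 without and 141 with it in the wildtype degron line, 177 without and 182 with it in the mutant degron line, and 122 without and 117 with it in parental cells. Its difference in the knockout line was -0.80 ± 0.18, and that library was again the lowest. CDC20, the activator of the anaphase-promoting complex, had 61.8 without Shld and 99.9 with it in the knockout line, 73.7 without and 80.9 with it in the wildtype degron line, 112 without and 109.6 with it in the mutant degron line, and 78.8 without and 74.0 with it in parental cells. Between the knockout libraries it differed by -0.68 ± 0.17. SGOL1, a shugoshin that protects centromeric cohesion, had 11.6 without Shld and 14.3 with it in the knockout line, 9.86 without and 10.6 with it in the wildtype degron line, 13.9 without and 17.0 with it in the mutant degron line, and 12.8 without and 14.3 with it in parental cells. Its knockout difference was -0.27 ± 0.17. ESPL1, or separase, which cleaves cohesin, was at -0.68, and its inhibitor PTTG1, or securin, was at -0.31.

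The 5 cytokinesis genes had the lowest median of the 8 role groups, -0.70, and 4 were at least 1.5-fold lower. IQGAP3 had 20.7 without Shld and 46.3 with it in the knockout line, 42.0 without and 56.4 with it in the wildtype degron line, 52.6 without and 47.5 with it in the mutant degron line, and 38.6 without and 41.2 with it in parental cells. Its knockout library without Shld was the lowest by a wide margin and was 2.18-fold below the same line with Shld (-1.12 ± 0.16). KIF20A, a kinesin of the central spindle, had 31.1 without Shld and 54.5 with it in the knockout line, 34.3 without and 43.7 with it in the wildtype degron line, 65.2 without and 51.6 with it in the mutant degron line, and 29.8 without and 26.4 with it in parental cells. Its knockout difference was -0.79 ± 0.17. KIF23, the kinesin of centralspindlin, had 34.2 without Shld and 47.3 with it in the knockout line, 40.0 without and 45.7 with it in the wildtype degron line, 48.1 without and 50.8 with it in the mutant degron line, and 44.8 without and 43.4 with it in parental cells. Between the knockout libraries it differed by -0.45 ± 0.16. ANLN, an actin-binding protein of the cleavage furrow, and PRC1, which bundles antiparallel microtubules, were at -0.70 and -0.64.

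**Figure D2:**
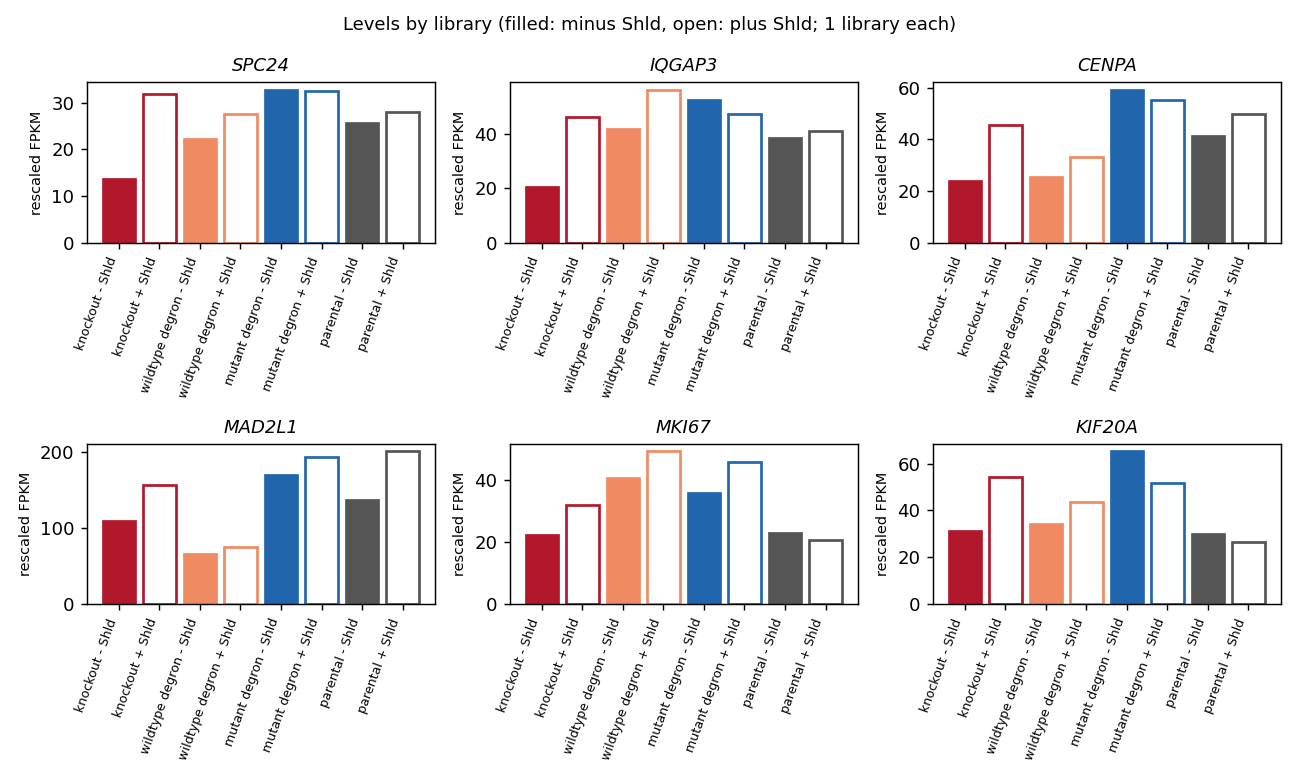
Rescaled FPKM (linear axis from 0) of SPC24, IQGAP3, CENPA, MAD2L1, MKI67 and KIF20A in the 8 libraries; filled bars are without Shld, open bars with Shld, and no error can be shown for 1 library per bar. SPC24, IQGAP3 and CENPA are lowest in the knockout line without Shld, MAD2L1 is lowest in both wildtype degron libraries, and MKI67 and KIF20A are higher in all 3 derived lines with Shld than in parental cells.

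In the wildtype degron line, 37 of the 44 members were lower without Shld than with it, against 47% of all genes. The differences were small, with a median of -0.18 against +0.01 over all genes, and the level without Shld was between 72.9% (CENPM) and 116.5% (SGOL2) of that with it. No member was 1.5-fold lower (1.03% of all genes were) or higher (0.551%). None fell and none rose in limma (0.0285% of all genes fell and 0.00951% rose), and 2 members were at an unadjusted p below 0.05, both lower (2.81% of all genes). CENPM, an inner centromere protein, was lowest at -0.44, with 26.5 rescaled FPKM without Shld and 36.3 with it. IQGAP3 was at -0.42, with 42.0 without and 56.4 with Shld, and CENPA at -0.37, with 25.5 without and 33.2 with it.

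In the mutant degron line, 30 members were lower and 14 higher without Shld, with a median of -0.06, and 51.3% of all genes were lower. None was 1.5-fold lower (0.295% of all genes) or higher (0.561%), none fell or rose in limma (0.0285% of all genes in each direction), and none was at an unadjusted p below 0.05 (2.13% of all genes in either direction). The extremes were MKI67, the proliferation marker that coats mitotic chromosomes, at -0.35 with 35.9 rescaled FPKM without Shld and 45.9 with it, and KIF20A at +0.33 with 65.2 without and 51.6 with it. In parental cells 24 members were lower (45.4% of all genes), the median was -0.05, and the range was -0.55 for MAD2L1 to +0.35 for CENPE. None of the 44 was 1.5-fold lower (1.22% of all genes) or higher (0.342%) in the parental pair, which has no test of its own because it supplies the spread.

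Set side by side, 43 of the 44 members had a lower difference in the knockout line than in each of the other 3 pairs (27.7% of all genes), 24 were lower without Shld in all 3 derived lines (12.5%), and 11 in all 4 pairs (5.73%). The difference between the knockout and the mutant degron withdrawals was below 0 for all 44 members (50% of all genes), with a median of -0.52, and 17 were at least 1.5-fold lower (4.84% of all genes). None passed in limma (0.0665% of all genes in each direction), while 19 were lower at an unadjusted p below 0.05 (5.1% of all genes). With genes restricted to a mean of at least 5, or with a length correction, 3 members passed this difference (0.279% of genes were lower with the mean of at least 5 and 0.475% with the length correction): IQGAP3 at -1.27 (limma, adjusted p = 0.0142) and -1.33 (0.00526), SPC24 at -1.17 (0.0196) and -1.12 (0.0165), and KIF20A at -1.12 (0.0323) and -1.10 (0.0248). Between the knockout and the wildtype degron withdrawals the difference was again below 0 for all 44 (52.4% of all genes), with a median of -0.43. None passed (0.019% of all genes were lower and 0.038% higher), and 11 were lower at an unadjusted p below 0.05 (1.53% of all genes). Between the wildtype and the mutant degron withdrawals 32 were below 0 (48.2% of all genes) and the median was -0.12. None passed in limma there (0.0475% of all genes were lower and 0 genes higher), and 2 were lower at an unadjusted p below 0.05 (3.3% of all genes), a share of 44 near that of all genes.

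**Figure D3:**
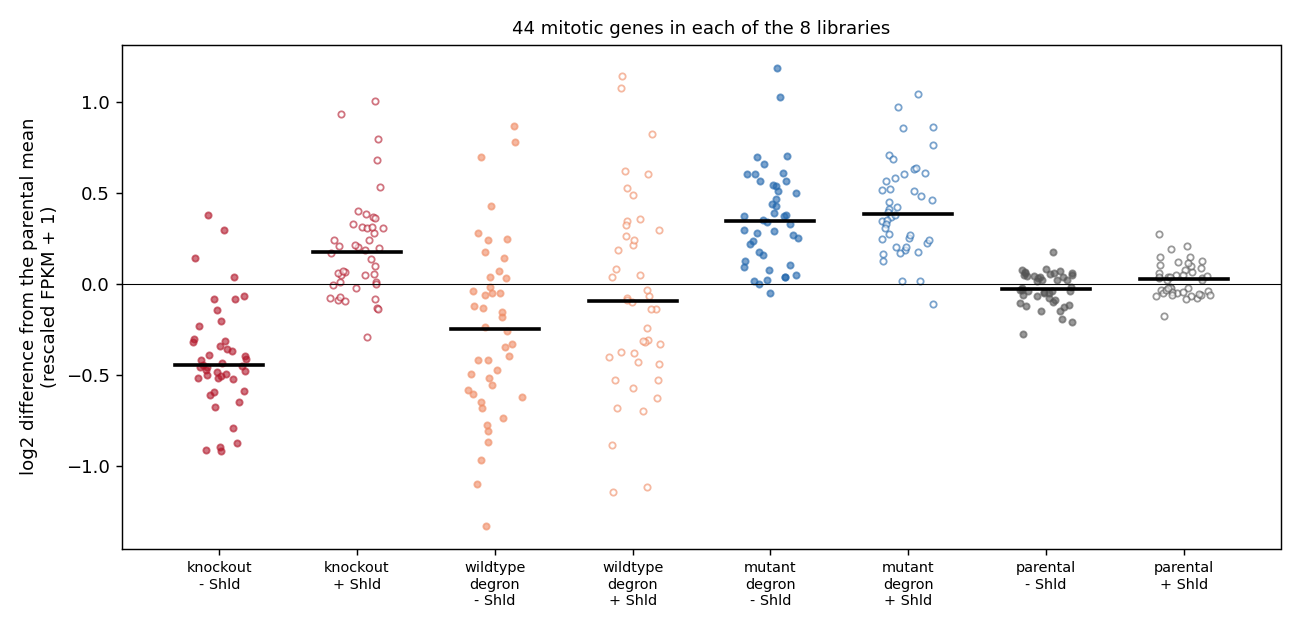
Log2 difference of each of the 44 members in each library from the mean of the 2 parental libraries (log2 of rescaled FPKM + 1); filled points are without Shld, open points with Shld, and bars are medians over members. The medians are -0.45 in the knockout line without Shld, +0.18 in it with Shld, -0.25 without and -0.09 with it in wildtype degron cells, and +0.35 without and +0.38 with it in mutant degron cells.

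Across the 8 libraries the members took between 0.258% of the summed rescaled FPKM in the knockout line without Shld and 0.453% in the mutant degron line with it. The parental libraries held 0.316% without Shld and 0.310% with it. The knockout line without Shld had the lowest level of 21 members, and the wildtype degron line without Shld had that of 13. The mutant degron line held the highest level of 37 members, 12 of them without Shld and 25 with it. The same shares over all genes were not counted, so whether these libraries are extreme for genes in general was not tested. In the knockout line without Shld every member was below its level with Shld in that line. From the parental mean the members differed there by a median of -0.45, with a range of -0.92 to +0.38. ANLN, CENPF and KIF20A, for example, stayed above both parental libraries. This library was not compared with the parental mean in limma. As the knockout line is known from 2 libraries, a difference between cultures other than Shld was not tested.

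With Shld present, the baseline of the knockout line gave members that rose at about the share of all genes: 5 rose (11.4% of 44, against 12.6% of all genes), none fell (14.3% of all genes), and the median was +0.18. ANLN had 61.5 without Shld and 101 with it in the knockout line, 56.5 without and 62.6 with it in the wildtype degron line, 102 without and 98.7 with it in the mutant degron line, and 52.1 without and 47.7 with it in parental cells. Its baseline in the knockout line was +1.00 ± 0.15 above the parental mean. KIF20A was +0.93 ± 0.14 above it, CENPF +0.80 ± 0.14, CENPE +0.68 ± 0.17 and MKI67 +0.53 ± 0.14 (limma, adjusted p between 0.000487 for ANLN and 0.0162 for MKI67). For all 5 of these members both parental libraries lay below every library with Shld of the derived lines.

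In the mutant degron line with Shld, 43 of the 44 members were above the parental mean (45.3% of all genes), with a median of +0.38, and 17 rose (38.6% of 44, against 8.37% of all genes), while none fell (9.25% of all genes). MKI67 had 22.4 without Shld and 31.9 with it in the knockout line, 40.5 without and 49.2 with it in the wildtype degron line, 35.9 without and 45.9 with it in the mutant degron line, and 22.9 without and 20.7 with it in parental cells. It was +1.04 ± 0.14 above the parental mean, ANLN +0.97 ± 0.15, CENPF +0.86 ± 0.14, KIF20A +0.85 ± 0.14 and CENPE +0.76 ± 0.17. The other 12 were ESPL1, SGOL2, KIF2C, CCNB1, BUB1, TOP2A, CDC25C, AURKA, NDC80, CDC20, TPX2 and KIF11, between +0.71 and +0.48. The adjusted p of the 17 lay between 0.000537 for MKI67 and 0.0385 for TPX2 (limma). No gene of the inner centromere or of the passenger complex was among these risen members. However, 8 of the 9 inner centromere genes (median +0.25) and all 3 passenger genes (median +0.34) were above the parental mean. In groups this small the absence carries little information.

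In the wildtype degron line with Shld, members were called in both directions at shares not far from those of all genes. There 9 fell (20.5% of 44, against 14.8% of all genes) and 7 rose (15.9%, against 14.1%), with a median of -0.09. MAD2L1 was lowest at -1.14 ± 0.21, with 74.4 rescaled FPKM in that library against 136 without and 200.4 with Shld in parental cells. CENPK, another inner centromere protein, had 18.3 without Shld and 30.8 with it in the knockout line, 12.5 without and 12.4 with it in the wildtype degron line, 28.0 without and 33.5 with it in the mutant degron line, and 24.1 without and 32.4 with it in parental cells, and its baseline difference was -1.11 ± 0.17. CDK1, the kinase that drives mitosis, had 107 without Shld and 158 with it in the knockout line, 77.8 without and 82.3 with it in the wildtype degron line, 178 without and 193 with it in the mutant degron line, and 134 without and 175 with it in parental cells, and its difference was -0.89 ± 0.19. Both wildtype degron libraries were the lowest of the 8 for MAD2L1, CENPK and CDK1. CENPN, which binds CENP-A nucleosomes, was at -0.70 ± 0.15, with 31.0 without Shld and 46.9 with it in the knockout line, 35.5 without and 35.2 with it in the wildtype degron line, 58.4 without and 66.5 with it in the mutant degron line, and 52.9 without and 62.8 with it in parental cells. NUF2 was at -0.68 ± 0.16, with 40.1 without Shld and 66.7 with it in the knockout line, 38.0 without and 43.3 with it in the wildtype degron line, 83.6 without and 90.7 with it in the mutant degron line, and 63.3 without and 77.7 with it in parental cells. The other members that fell were PTTG1, SPC25, CCNB2 and TTK, between -0.63 and -0.53.

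The members that rose in the wildtype degron line were MKI67 at +1.14 ± 0.14, CENPF at +1.07 ± 0.14, INCENP at +0.82 ± 0.14, KIF20A at +0.62 ± 0.14, CENPE at +0.60 ± 0.17, ESPL1 at +0.52 and IQGAP3 at +0.49. Over the 16 members that fell or rose the adjusted p lay between 0.00121 for MKI67 and 0.0279 for CCNB2 (limma). CENPE, CENPF, KIF20A and MKI67 rose in all 3 derived lines, as 2.14% of all genes did. The 3 baselines share the parental libraries, so this count is not a repeat in independent controls.

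Comparisons among the derived lines with Shld do not use the parental mean, but their spread is still that of the parental pair. They too varied with transcript length in 2 of 3 cases, as given below. Against the mutant degron line, the wildtype degron line had 23 members that fell (52.3% of 44, against 13.7% of all genes) and 1 that rose (14.9% of all genes), and 39 were below 0 (48.2% of all genes), with a median of -0.54. CENPK was at -1.37 ± 0.20, MAD2L1 at -1.36 ± 0.25, CDK1 at -1.22 ± 0.22 and NUF2 at -1.05 ± 0.19. TTK was at -0.99 ± 0.17, with 36.3 without Shld and 51.5 with it in the knockout line, 35.6 without and 34.2 with it in the wildtype degron line, 61.3 without and 68.8 with it in the mutant degron line, and 46.4 without and 53.3 with it in parental cells. INCENP alone rose (+0.65 ± 0.16). The adjusted p of these 24 was at most 0.0442, for PTTG1 (limma). In the knockout line against the wildtype degron line 9 members rose (20.5%, against 15.4% of all genes) and 2 fell (4.55%, against 17.5%). The largest were CENPK at +1.25 ± 0.20, MAD2L1 at +1.07 ± 0.25 and CDK1 at +0.93 ± 0.22 upward and INCENP at -0.92 ± 0.16 and MKI67 at -0.61 ± 0.16 downward. The other members that rose included ANLN at +0.68 ± 0.17 and NUF2 at +0.61 ± 0.19, and the adjusted p of the 11 was at most 0.0302, for CENPH (limma). Between the knockout and the mutant degron lines none fell or rose (limma, 3.01% and 2.46% of all genes), 9 were lower at an unadjusted p below 0.05 (9.28% of all genes), and 40 of the 44 were below 0 (48.1% of all genes) with a median of -0.25.

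The baseline calls depended on the genes and the spread entered. Without the filter on the mean, and with every locus, no member passed any baseline comparison. With the spread taken from the knockout and parental pairs together, the wildtype degron line had 2 fallen and 3 risen members and the mutant degron line 2 risen, both against the parental mean. That setting counts the Shld difference of the knockout pair, with a median of -0.59 over the members, as spread. Shares of all genes were not counted under any of these settings, so the counts have no background to be set against.

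Baseline differences went with transcript length. Over the 44 members the Spearman correlation between the baseline difference and the longest coding transcript was 0.44 in knockout cells, 0.58 in wildtype degron cells and 0.45 in mutant degron cells, against 0.24, 0.39 and 0.29 over 9871 genes. In the wildtype degron line the 22 members with transcripts up to 2649 bases had a median of -0.33 and the 22 longer ones a median of +0.28. The parental pair, without less with Shld, had 0.42 over the members and 0.25 over all genes. For the knockout withdrawal the correlation was -0.02 over the members and 0.13 over all genes, and for the mutant degron withdrawal -0.34 and -0.23. With Shld, the wildtype against the mutant degron line had 0.41 over the members and 0.13 over all genes. The knockout against the wildtype degron line had -0.41 and -0.12, and the knockout against the mutant degron line -0.001 and 0.003. Genes and members are not independent replicates and share their libraries. With a length correction chosen after seeing the data, 9 members rose in the knockout line (13.6% of all genes), 8 fell (15.6%) and 4 rose (13.5%) in the wildtype degron line, and 24 rose in the mutant degron line (9.32%). The part of length in these differences was not tested.

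**Figure D4:**
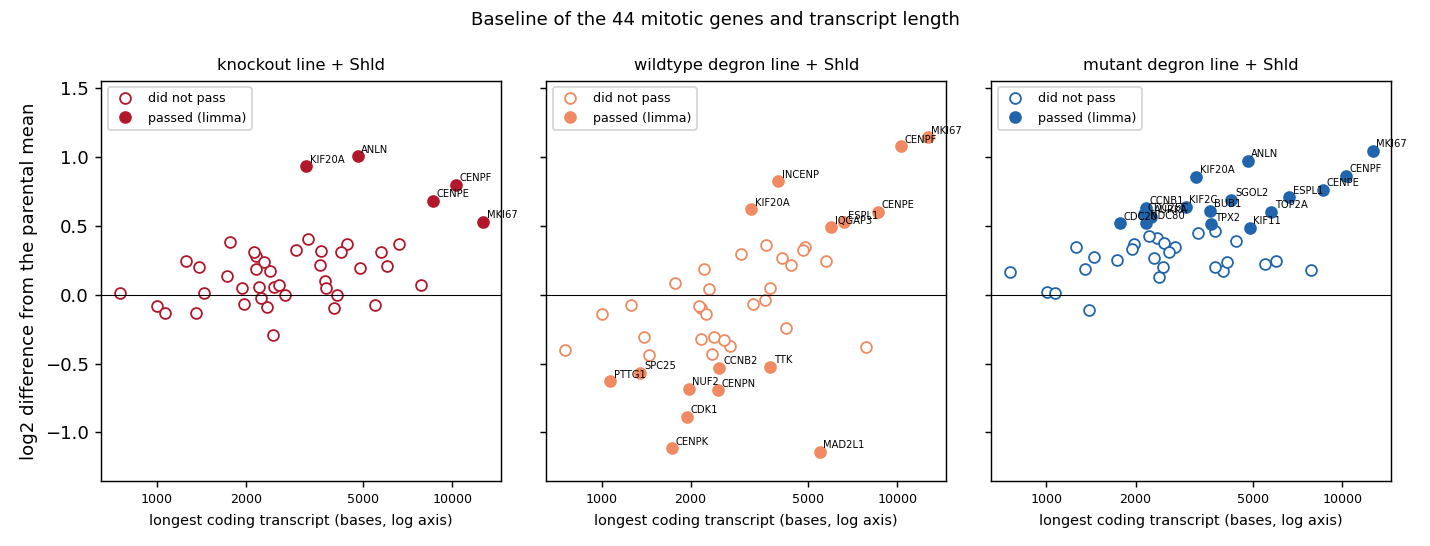
Log2 difference of each member in a derived line with Shld from the parental mean, against the length of its longest GENCODE coding transcript (bases, log axis), for the knockout, wildtype degron and mutant degron lines; filled points passed limma at an adjusted p of 0.05 and are named. MKI67, CENPF and CENPE, with the longest transcripts among the named genes, are high in all 3 panels, and MAD2L1, CENPK and CDK1 are lowest in the wildtype degron panel.

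Neighbouring lists showed where the knockout pair differed outside the members. Over all genes in that pair, 49.6% were below 0, 2.79% were at least 1.5-fold lower, 0.323% fell and 0.209% rose. Of 28 further centromere and kinetochore genes 21 were measured, 19 were below 0, the median was -0.38, 7 were at least 1.5-fold lower and none fell or rose in limma. The lowest were OIP5, which helps to load CENP-A, at -0.85, KNTC1 at -0.79, CASC5, the kinetochore scaffold, at -0.76 and DSN1 at -0.71. OIP5 was also lower without Shld in parental cells, at -0.49, and in the wildtype degron line, at -0.51. In the mutant degron line it had 22.5 rescaled FPKM without Shld and 22.2 with it. Of 52 further mitosis genes 44 were measured, 42 were below 0 with a median of -0.51, and 2 fell. These were PLK4, the kinase of centriole duplication, at -0.98 ± 0.16 (limma, adjusted p = 0.0239), and KIFC1, a minus-end kinesin, at -0.91 ± 0.16 (limma, adjusted p = 0.0369). Of 19 condensin and cohesin genes 15 were measured, 12 were below 0 with a median of -0.37, and ESCO2, an acetyltransferase of cohesin, fell at -0.89 (limma, adjusted p = 0.0414). All 23 measured genes of replication licensing and DNA synthesis, of 24 listed, were below 0 with a median of -0.52. In that list POLA1 and POLE2, subunits of replicative DNA polymerases, fell, each at -0.96 (limma, adjusted p = 0.0358).

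The regulators of cell cycle transcription had a median nearer to 0. Of 24 listed 22 were measured, the median was -0.23, none fell (0.323% of all genes) and 1 rose (0.209%). That gene was CDKN1A, the inhibitor of cyclin-dependent kinases also called p21, with 296 rescaled FPKM without Shld and 88.9 with it in the knockout line, a difference of +1.73 ± 0.18 (limma, adjusted p = 0.0045). Its other 6 libraries lay between 94.3 and 155, the highest being the wildtype degron line without Shld. MYBL2 and FOXM1, transcription factors of late cell cycle genes, were at -0.85 and -0.64. The repressor E2F8 was at -0.63 ± 0.22, with low levels of 1.01 rescaled FPKM without Shld and 2.11 with it. In the wildtype degron line no gene of these 5 lists fell or rose after Shld removal (0.0285% of all genes fell and 0.00951% rose). Their medians there lay between -0.16 and -0.04. In the mutant degron line none did either (0.0285% of all genes in each direction), and the medians lay between -0.06 and 0.00. With so few genes called in either line, these absences carry little information.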

How the data were processed

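RNA was sequenced from 8 groups of 1 library each, as TruSeq libraries with paired reads of 100 bases on a HiSeq instrument per the labels' protocols. TopHat, Cufflinks and build hg19 are named in the submitters' processing notes, with no version, annotation or use of strand given, so reads of a gene and of an antisense partner cannot be told apart. The authors deposited 1 table of FPKM-type values rescaled so that the 75th percentile of each library is 10. That FPKM was the input is inferred from Cufflinks and the values. Columns were matched to samples by name.

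The members and the other gene lists were chosen with earlier results of these data known. Log2(value + 1) was fitted with limma 3.58.1 and R 4.3.3 (empirical Bayes with a trend, 10.2 prior degrees of freedom) over 10520 named genes, 1 locus each, small RNAs left out, with a mean of at least 1. The parental libraries shared a mean and gave the spread with 1 residual degree of freedom, and each other library had its own coefficient. P-values were adjusted by Benjamini-Hochberg over all genes at 0.05, and "rose" and "fell" refer to that test. No label says that a pair came from separate cultures, and the p-values reflect a spread that may be technical. The fit was tested on simulated data of 10520 genes for the knockout withdrawal. It recovered 4 of 200 genes changed by 0.6 on the log2 scale (2%) and 103 of 200 changed by 1 (51.5%). There were 4 false calls in each, as many as the genes recovered at 0.6. Every simulated library was given a spread modelled on the parental pair. The simulation therefore cannot show whether the other libraries vary like that pair. Values in all libraries were given for the 2 members of each role group with the lowest and the 1 with the highest difference in the knockout pair, and for up to 5 members in each direction that passed another comparison. Up to 4 genes with the largest differences were named from each other list. Other members named were chosen after their values were seen. Transcript lengths were from GENCODE v29 and promoters from RefSeq, both on a later build than hg19, so that no hg19 coordinates are given. The alternatives were pseudocounts of 0.1 and 5, a mean of at least 5, no filter on the mean, quantile normalization, median centring, every locus, a spread from the knockout and parental pairs, leaving out either parental library, and, chosen after seeing the data, a length correction and an average over the 4 lines with the line as a block.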

Additional observations from a re-analysis of the deposited data

How the results depend on the processing

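No paired analysis within a line was possible because each line has 1 library in each state, so that no such comparison holds more than 1 pair. With the line as a block, chosen after seeing the data, the average Shld difference over the 4 lines was taken (3 residual degrees of freedom). It was below 0 for all 44 members, with a median of -0.21, and for 5017 of the 10520 genes. No member and no other gene passed limma. At an unadjusted p below 0.05, 18 of the 44 members and 346 of the 10520 genes were lower. That average joins unlike lines, with member medians of -0.59 in the knockout, -0.18 in the wildtype degron, -0.06 in the mutant degron and -0.05 in the parental pair. The direction of the median over the 44 members was kept in every comparison and alternative run, and no comparison reversed. The number of members passing the test moved more, and the cause was not tested. In the knockout withdrawal it was 2 as reported, 18 with a mean of at least 5, 22 with the length correction, and 0 without a filter on the mean, with median centring and with every locus. In the baseline of the knockout line against the parental mean it was 5, 9 with the length correction and 0 without a filter and with every locus. The 16 in the wildtype degron line and the 17 in the mutant degron line became 0 without a filter and with every locus, and 5 and 2 with the spread from the knockout and parental pairs. That spread includes the Shld difference of the knockout pair. In the knockout against the wildtype degron line the 11 became 0 without a filter and with every locus. The knockout line set against mutant degron cells had 0, 1 with a mean of at least 5 and 2 with the length correction, and the wildtype degron line had 24, 0 without a filter and with every locus, and 6 with the other spread. The difference between the knockout and mutant degron withdrawals had 0, and 3 with a mean of at least 5 and with the length correction. Shares of all genes were counted under an alternative only where they are given with the results above. The other counts have no background to be set against. The prior degrees of freedom were 10.2 as reported, 23.4 with a mean of at least 5, 20.4 with the length correction, 6.44 with median centring, 2.17 with every locus and 0.874 without a filter. The 23 members at least 1.5-fold lower in the knockout withdrawal became 16 with a pseudocount of 5, 20 with median centring, 21 with the length correction, 22 with quantile normalization and 24 with a pseudocount of 0.1. The spread of 1 parental pair limits what can be called, since no other library has a replicate.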
